A study of Homo sapiens with 8 samples.

Results

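The SR proteins and their TRA2 relatives are a family of RNA-binding splicing regulators, represented here by 10 genes: SRSF1, SRSF2, SRSF3, SRSF4, SRSF5, SRSF6, SRSF7, SRSF9, TRA2A and TRA2B. The rows were taken by gene symbol, and each symbol had 1 row among the 17912 genes measured. All 10 passed the filter on low values (a mean signal of at least 1 over the 8 libraries), which left 15542 genes tested. The cells were NKM-1, an established human leukemia cell line labelled myeloid and wild type, grown for 48 h with the compound SF153 at 30 uM or with its solvent DMSO. Each treatment had 4 total RNA libraries depleted of ribosomal RNA, 2 in each of batches 1 and 2, and all 8 come from this 1 cell line. A library is named by its batch and then its number (SF153 2.1 for library 1 of batch 2). The series title describes an inhibitor of splicing factors that carry a U2AF homology motif (UHM), and its design text pairs SF153 with DMSO.

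An SR protein binds short sequences in exons through RNA recognition motifs and recruits U2AF and the U1 snRNP to the neighbouring splice sites through a tail rich in alternating arginine and serine, the RS domain. Kinases of the SRPK and CLK families phosphorylate that tail and so set where the protein resides and how it acts. TRA2A and TRA2B have an RS domain on either side of a single recognition motif and bind purine-rich exon enhancers. Many genes of the family limit their own expression by splicing in a "poison" exon, which carries a premature stop codon and exposes the mRNA to nonsense-mediated decay. In myeloid neoplasms SRSF2 is among the splicing factor genes known to be mutated; its sequence was not examined in these cells.

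The RS domain is what the family shares, and its coding sequence differs much in extent between members. In 1 principal coding transcript per gene (GENCODE release 29), codons for arginine and serine stood next to each other most often in SRSF4, then 76 times in SRSF6, 53 in SRSF7, 52 in both SRSF2 and SRSF5, 50 in TRA2B, 40 in TRA2A, 31 in SRSF1, 25 in SRSF3 and 9 in SRSF9. The density was 22.9 such pairs per 100 codons in SRSF4, the longest with 494 codons, and over the family it ran from 4.07 in SRSF9 to 23.5 in SRSF2. The 90-base stretch (30 codons) with the most pairs is printed for SRSF3 and its closest relative SRSF7, which had differences of unlike size, for SRSF9, which has the fewest pairs, and for SRSF6, which was not called with the authors' scaling. Capitals mark codons for arginine or serine.
SRSF3: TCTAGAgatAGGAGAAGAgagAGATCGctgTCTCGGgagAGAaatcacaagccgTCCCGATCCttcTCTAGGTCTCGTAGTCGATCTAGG
SRSF7: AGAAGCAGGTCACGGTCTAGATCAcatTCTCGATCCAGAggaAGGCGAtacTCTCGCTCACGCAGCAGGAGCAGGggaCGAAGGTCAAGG
SRSF9: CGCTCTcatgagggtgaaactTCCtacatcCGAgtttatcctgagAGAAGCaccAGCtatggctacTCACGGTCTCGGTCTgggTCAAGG
SRSF6: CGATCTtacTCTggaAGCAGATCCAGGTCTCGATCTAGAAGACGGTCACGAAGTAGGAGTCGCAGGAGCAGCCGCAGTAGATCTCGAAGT
The stretch holds 12 pairs in SRSF3, 19 in SRSF7, 7 in SRSF9 and 21 in SRSF6. It starts at base 388 of the coding sequence in SRSF3, 379 in SRSF7, 511 in SRSF9 and 565 in SRSF6.

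The 10 genes also share an annotation of unproductive transcripts. Each had at least 1 transcript classed as subject to nonsense-mediated decay in GENCODE release 29. How common this class is among other genes was not counted. SRSF7 had 6 of 12 transcripts in that class, SRSF1 3 of 9, SRSF3, SRSF2 and SRSF4 had 2 each (of 8, 11 and 8), and the other members 1 each. The deposited values are sums per gene, so coding and unproductive transcripts of a member cannot be told apart in them. Splice junctions were not analysed here.

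The value per gene is called signal. It is of the TPM type (a transcript's share of the library, corrected for its length), so levels of different genes can be set side by side, but it is not plain TPM, because the libraries summed to between 828381 and 1027119. The read depth of each library is unknown. The share of mitochondrial transcripts in the summed signal was 16.8% in SF153 2.1 and 2.2 but 9.17% to 9.92% in every other library. RN7SK, a noncoding RNA, had shares of 18.7% and 18.2% in SF153 1.1 and 1.2 against 11.4% to 13.9% in the remainder. Of 11 myeloid markers 10 had a row, among them the granule enzyme gene MPO (a median signal of 741 in DMSO and 457 in SF153), and their summed signal was 1552 to 1795 in DMSO and 1173 to 1418 in SF153. The myeloid markers did not move together. The median was lower in SF153 for LYZ, PRTN3, CEBPA and SPI1 as well, but higher for CD33, ITGAM, CSF3R, AZU1 and CD68. That of CD33 was 72.6 in DMSO and 97.3 in SF153. Of 4 progenitor markers 2 had a row, with a sum of 352 to 360 in DMSO and 265 to 287 in SF153. These were FLT3, with a median of 130 in DMSO and 54.6 in SF153, and MYB, with 226 and 218. By contrast, 5 of 5 erythroid and 5 of 5 epithelial or stromal markers had no row in the files, and ELANE, CD34 and KIT had none either. B cell markers CD79A and CD79B were present (medians of 27.1 and 52.7 in DMSO, 6.71 and 26.9 in SF153). PAX5, the other B cell marker with a row, went the other way at a low signal, with medians of 1.23 in DMSO and 2.42 in SF153. Summed over the 3 B cell markers with a row, the signal was 77.2 to 87.3 in DMSO and 20.7 to 48.5 in SF153; that of the 1 T cell marker with a row, of 5, was 5.08 to 6.07 and 0 to 0.705. Their part in the results below was not tested. Fewer cells of a type and less RNA per cell cannot be told apart in bulk RNA.

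SF153-treated cells had less SRSF3 mRNA, at 45.9% of the DMSO mean, and this was the largest difference in the family. SRSF9, SRSF7, SRSF1 and SRSF2 were also lower, at 70.2%, 74.7%, 76.1% and 83.1% of the DMSO mean, in the authors' scaling. SRSF4, SRSF5, SRSF6, TRA2A and TRA2B did not pass the test, and none of the 10 was higher. SRSF3 was called lower in each of the 4 other scalings between libraries. SRSF1, SRSF7 and SRSF9 lost their calls in 1 or more of them. SRSF2 was called lower in none of them, and its direction turned in 2. Differences were tested with limma on log2(signal + 1), and called at an adjusted p below 0.05 (Benjamini-Hochberg over the 15542 genes). By this rule 5 of 10 members fell and 0 rose, beside 37.2% of all tested genes called in either direction, 24.3% called lower and 13% called higher. The median log2 difference was -0.22 over the 10 members and -0.03 over all tested genes; after quantile normalization these were 0.13 and 0.07. In 6 members every SF153 library lay below every DMSO library, which held for 23.6% of all tested genes, and the groups of the other 4 overlapped.

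**Figure D1:**
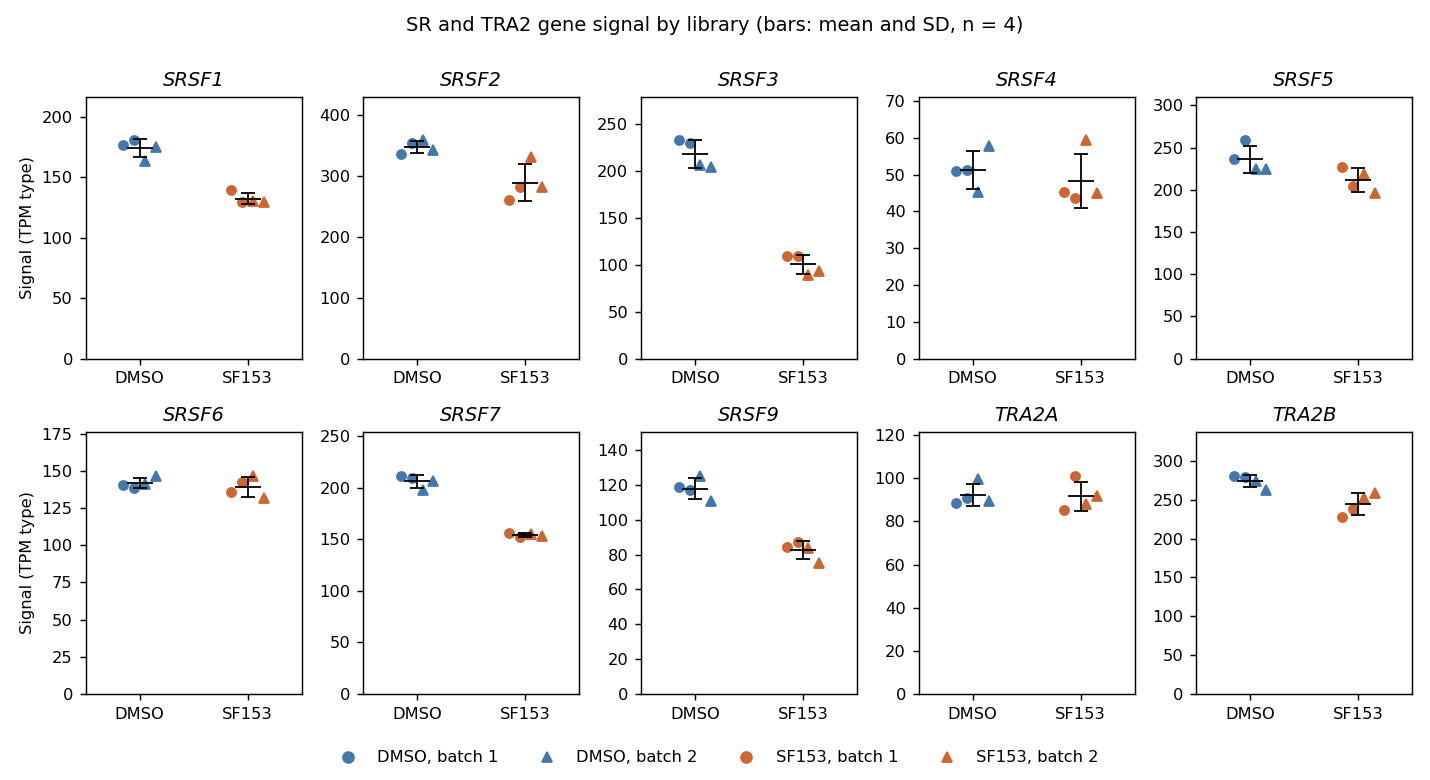
Signal (TPM type, linear axis from 0) of each of the 10 genes in the 4 DMSO and 4 SF153 libraries, with batch 1 as circles and batch 2 as triangles; bars give the mean and SD (n = 4). SRSF3 shows the widest gap, between 203.4 and 232.3 in DMSO and between 88.8 and 109.4 in SF153, whereas the groups of SRSF4, SRSF5, SRSF6 and TRA2A overlap.

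SRSF3 is the smallest protein of the family and, beside its role in splicing, takes part in mRNA export and in the choice of polyadenylation sites. Its gene lies on chromosome 6 (36594353 to 36605600, plus strand, GRCh38). The SRSF3 signal was 232.3, 229.6, 206.0 and 203.4 in DMSO 1.1, 1.2, 2.1 and 2.2, and 109.4, 108.8, 88.8 and 93.3 in SF153 in the same order. The groups did not overlap, and in each treatment both libraries of batch 1 lay above both of batch 2. The mean went from 217.8 ± 15.2 to 100 ± 10.6 (SD, n = 4 per group), a log2 difference of -1.12 ± 0.09 (SE; limma adjusted p = 3.74e-05). The difference was -1.08 in batch 1 and -1.16 in batch 2. Of all tested genes, 6.24% had a difference as low or lower. Across the other scalings it ran from -1.04 (median of ratios) to -0.78 (without mitochondrial and small RNA genes), with a limma adjusted p of 7.42e-05 or less in each.

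SRSF7 is the member closest to SRSF3 in domain layout and differs from it by a zinc knuckle beside the recognition motif. Its gene is on chromosome 2 (38743599 to 38751494, minus strand). SRSF7 had a signal of 211.5, 209.1, 197.2 and 206.8 in the DMSO libraries, ordered as before, and 155.9, 152.1, 155.1 and 153.1 in the SF153 libraries. The SF153 libraries were close to each other and all below DMSO. The mean went from 206.2 ± 6.26 to 154.1 ± 1.75 (SD, n = 4), a log2 difference of -0.42 ± 0.06 (SE; limma adjusted p = 0.000412). SRSF7 was not called after quantile normalization (-0.08), without mitochondrial and small RNA genes (-0.08) or after removal of the trend on transcript length and mean signal (-0.11).

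SRSF1, long known as ASF/SF2, is the founding member of the family and has a pair of RNA recognition motifs; SRSF9 has the same layout with a much shorter RS domain. The SRSF1 gene is on chromosome 17 (58003360 to 58007346, minus strand) and that of SRSF9 on chromosome 12 (120461668 to 120469793, minus strand). SRSF1 had a signal of 176.7, 180.7, 163.4 and 175.1 in DMSO and 139.7, 129.8, 130.5 and 129.9 in SF153. The groups did not overlap, and SF153 1.1 stood above the other 3 SF153 libraries. The mean went from 174.0 ± 7.42 to 132.5 ± 4.82 (SD, n = 4), a log2 difference of -0.39 ± 0.06 (SE; limma adjusted p = 0.00103). It did not pass after quantile normalization (-0.12), rescaling to equal sums (-0.26) or without mitochondrial and small RNA genes (-0.05). The files also hold a gene model on the same strand, ENSG00000266086, that overlaps 3887 bases of SRSF1, so that reads may have been split between them. This model had 8.50 ± 2.53 in DMSO and 17.8 ± 2.87 in SF153 (SD, n = 4), and the sum of both was 182.5 ± 6.38 and 150.3 ± 2.41, a log2 difference of -0.28 in place of -0.39.

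SRSF9 had a signal of 118.7, 116.9, 125.3 and 110.5 in DMSO and 84.6, 87.4, 83.8 and 75.1 in SF153. Every SF153 library was below every DMSO library, with SF153 2.2 the lowest. The mean went from 117.9 ± 6.10 to 82.7 ± 5.30 (SD, n = 4), a log2 difference of -0.51 ± 0.07 (SE; limma adjusted p = 0.000545). It was not called without mitochondrial and small RNA genes (-0.17). The direction turned to 0.39 (limma adjusted p = 0.00237) when the trend of all genes on length and mean signal was removed. At 1201 bases, SRSF9 has the shortest of the members' longest basic transcripts, which are 2229 bases or more in the others. Whether length has a part in the difference or in its turn was not tested. SRSF9 overlaps GATC on the opposite strand by 2082 bases, and GATC had 13.8 to 17.3 in DMSO and 9.26 to 16.8 in SF153.

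SRSF2, known as SC35, serves as the classic marker of nuclear speckles and is the most abundant member by signal in both treatments. Its gene is on chromosome 17 (76734115 to 76737374, minus strand) and overlaps MFSD11 on the opposite strand. SRSF2 had a signal of 336.1, 354.2, 359.0 and 343.1 in DMSO and 260.2, 282.4, 332.2 and 282.8 in SF153. The groups did not overlap, but SF153 2.1 came close to the lowest DMSO library. The mean went from 348.1 ± 10.4 to 289.4 ± 30.4 (SD, n = 4), a log2 difference of -0.27 ± 0.08 (SE; limma adjusted p = 0.0261). The call was lost without DMSO 1.2, 2.1 or 2.2, or SF153 1.1, 1.2 or 2.2 (limma adjusted p = 0.0505 to 0.0632), and without SF153 2.1 the difference was -0.34 (0.00635). SRSF2 was also not called after median-of-ratios scaling (-0.20, limma adjusted p = 0.0861) or rescaling to equal sums (-0.14, limma adjusted p = 0.451). The direction turned after quantile normalization, where SRSF2 was called higher (0.48, limma adjusted p = 0.0398). It also turned without mitochondrial and small RNA genes (0.07, not called). MFSD11, whose reads can be separated from those of SRSF2 only where strand was used in counting, had 26.1 to 35.5 in DMSO and 37.8 to 43.3 in SF153.

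SRSF4, SRSF5 and SRSF6 form a subgroup with a pair of recognition motifs and a long RS domain, and none of them was called with the authors' scaling. SRSF6 had a signal of 140.5, 138.8, 141.1 and 146.8 in DMSO and 135.6, 142.3, 146.7 and 131.9 in SF153. Of the SF153 libraries, 2 lay below the DMSO range and 2 within it, and the log2 difference was -0.03, with a 95% interval from -0.17 to 0.11 (limma adjusted p = 0.752). Without mitochondrial and small RNA genes SRSF6 was called higher (0.31, limma adjusted p = 0.00643), as it was after quantile normalization (0.23, 0.0382).

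SRSF5 had 236.7, 258.6, 224.0 and 225.0 in DMSO and 226.7, 204.3, 218.8 and 195.8 in SF153. Only SF153 1.1 reached into the DMSO range, and the log2 difference was -0.16, with a 95% interval from -0.33 to 0.01 (limma adjusted p = 0.132); it turned to 0.35 after quantile normalization (limma adjusted p = 0.0133). SRSF4, the member with the lowest signal, had 51.0, 51.1, 45.3 and 57.8 in DMSO and 45.2, 43.7, 59.3 and 44.9 in SF153. SF153 2.1 was the highest of all 8 libraries while the other 3 SF153 libraries were below every DMSO library, and the log2 difference was -0.09, with a 95% interval from -0.35 to 0.16 (limma adjusted p = 0.565). The SRSF4, SRSF5 and SRSF6 genes are on chromosomes 1 (29147743 to 29181987), 14 (69726900 to 69772005) and 20 (43457928 to 43464247).

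TRA2A and TRA2B are relatives of the Drosophila sex-determination splicing factor transformer-2. TRA2B, on chromosome 3 (185915906 to 185938136), had a signal of 280.9, 278.9, 273.7 and 262.8 in DMSO and 228.2, 237.7, 252.7 and 259.1 in SF153. The groups did not overlap, yet the gap was narrower in batch 2, and the log2 difference of -0.17 ± 0.06 (SE) did not pass over all genes (limma adjusted p = 0.0733). It was -0.26 in batch 1 (limma adjusted p = 0.0277 in that batch alone) and -0.07 in batch 2, and it turned to 0.41 after quantile normalization (limma adjusted p = 0.0384). TRA2A, on chromosome 7 (23504780 to 23532041), had 88.7, 90.9, 99.6 and 89.5 in DMSO and 85.3, 101.2, 88.2 and 91.6 in SF153. Its groups covered nearly the same range, and the log2 difference was -0.01, with a 95% interval from -0.18 to 0.16 (limma adjusted p = 0.926). Without mitochondrial and small RNA genes it was called higher (0.33, limma adjusted p = 0.00953).

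Effects in the 2 batches were compared with an interaction term, because the SF153 libraries of batch 2 stood apart in mitochondrial signal. None of the 10 members had a difference between batches that passed , beside 1.15% of all tested genes. TRA2B came closest, with a limma adjusted p of 0.419 for the interaction. In batch 1 alone, which leaves those libraries out, the members fell in 6 cases, the 5 above and TRA2B, beside 15.8% of the genes tested there. In batch 2 alone they fell in 4, without SRSF2 and TRA2B, beside 17%.

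In DMSO the members were ordered, from highest to lowest mean signal, SRSF2, TRA2B, SRSF5, SRSF3, SRSF7, SRSF1, SRSF6, SRSF9, TRA2A and SRSF4. The ranges of SRSF5 and SRSF3 overlapped, as did those of SRSF3 and SRSF7, while all other neighbours in the order were apart. In SF153, SRSF3 went from the fourth place to the seventh, below SRSF7, SRSF6 and SRSF1, and its range then overlapped that of TRA2A. The ranges of TRA2A and SRSF9 also overlapped, as did those of SRSF1 and SRSF6; the other neighbours, SRSF7 and SRSF6 among them, were apart. SRSF2, TRA2B and SRSF5 held the first 3 places in both treatments and SRSF4 the last.

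The composition of the SR and TRA2 mRNA pool does not depend on a scaling that uses 1 factor per library. The summed signal of the 10 genes does depend on it. With the authors' values the sum was 1821 to 1909 in DMSO and 1457 to 1556 in SF153. As a share of all signal in the library it was 0.177% to 0.192% and 0.144% to 0.188%, which overlap. Only SF153 2.1 (0.188%) overlapped, while SF153 1.1, 1.2 and 2.2 (0.144%, 0.148% and 0.174%) lay below every DMSO library. SF153 2.1 and 2.2 had the lowest total signal (828381 and 835839.5). SRSF3 made up 12.4%, 12.03%, 11.2% and 11.2% of the summed signal of the 10 genes in the DMSO libraries and 7.44%, 7.30%, 5.70% and 6.40% in the SF153 libraries. Its mean share was 11.7% ± 0.61 against 6.71% ± 0.81 (SD, n = 4). The share of SRSF6 was 7.63% ± 0.33 in DMSO and 9.31% ± 0.22 in SF153, that of TRA2A 4.96% ± 0.32 and 6.14% ± 0.51, and that of TRA2B 14.7% ± 0.26 and 16.4% ± 0.98. Shares sum to a whole, so a lower share of SRSF3 raises the others. Without overlap between treatments, 3 members had a lower share in SF153 (SRSF3, SRSF7 and SRSF9) and 3 a higher one (SRSF6, TRA2A and TRA2B). For signal, the groups were apart with SF153 lower in 23.6% of all tested genes and with SF153 higher in 13.2%. No such rate was computed for shares of a pool. The shares of SRSF1, SRSF2, SRSF4 and SRSF5 overlapped.

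**Figure D2:**
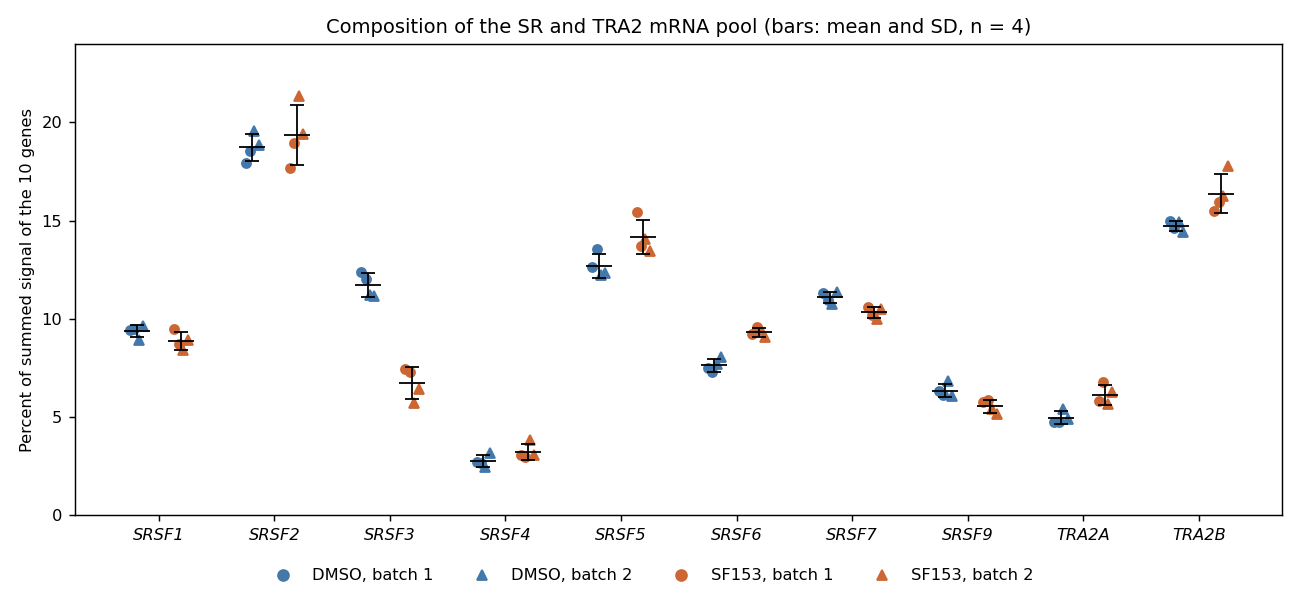
Percent of the summed signal of the 10 genes held by each gene in each library, DMSO in blue and SF153 in orange, circles for batch 1 and triangles for batch 2, with the mean and SD (n = 4). The SRSF3 points fall from between 11.2% and 12.4% in DMSO to between 5.70% and 7.44% in SF153, and those of SRSF6 lie higher in SF153.

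Ratios of related members within a library, which are likewise free of such a factor, were compared for 6 pairs with an exact two-sided permutation test of 4 against 4 libraries. The smallest p this test can give is 0.0286, and with adjustment over 6 ratios a single ratio cannot go below 0.171. The SRSF3/SRSF7 ratio was 1.10, 1.10, 1.04 and 0.984 in DMSO and 0.702, 0.715, 0.572 and 0.609 in SF153. The groups were far apart, with SRSF3 and SRSF7 at about equal signal in DMSO and SRSF3 the lower in SF153. The log2 difference of this ratio was -0.70 ± 0.09 (SE; exact permutation p = 0.0286, adjusted p = 0.171 over the 6 ratios), and it was -0.63 in batch 1 and -0.77 in batch 2.

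The other 5 ratios overlapped between treatments. SRSF1/SRSF9 had a mean of 1.48 ± 0.12 under DMSO and 1.61 ± 0.11 under SF153 (SD, n = 4; exact permutation p = 0.229). TRA2A/TRA2B was 0.337 ± 0.021 and 0.376 ± 0.035 (exact permutation p = 0.114), and its log2 differences by batch were 0.31 (batch 1) and -0.003 (batch 2). Within the SRSF4, SRSF5 and SRSF6 subgroup, the log2 differences were 0.07 ± 0.13 for SRSF4/SRSF5, -0.06 ± 0.10 for SRSF4/SRSF6 and -0.13 ± 0.08 for SRSF5/SRSF6 (SE), with an exact permutation p of 0.6, 0.543 and 0.143. At this number of libraries a p that misses the threshold does not show that the members of a pair responded alike.

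**Figure D3:**
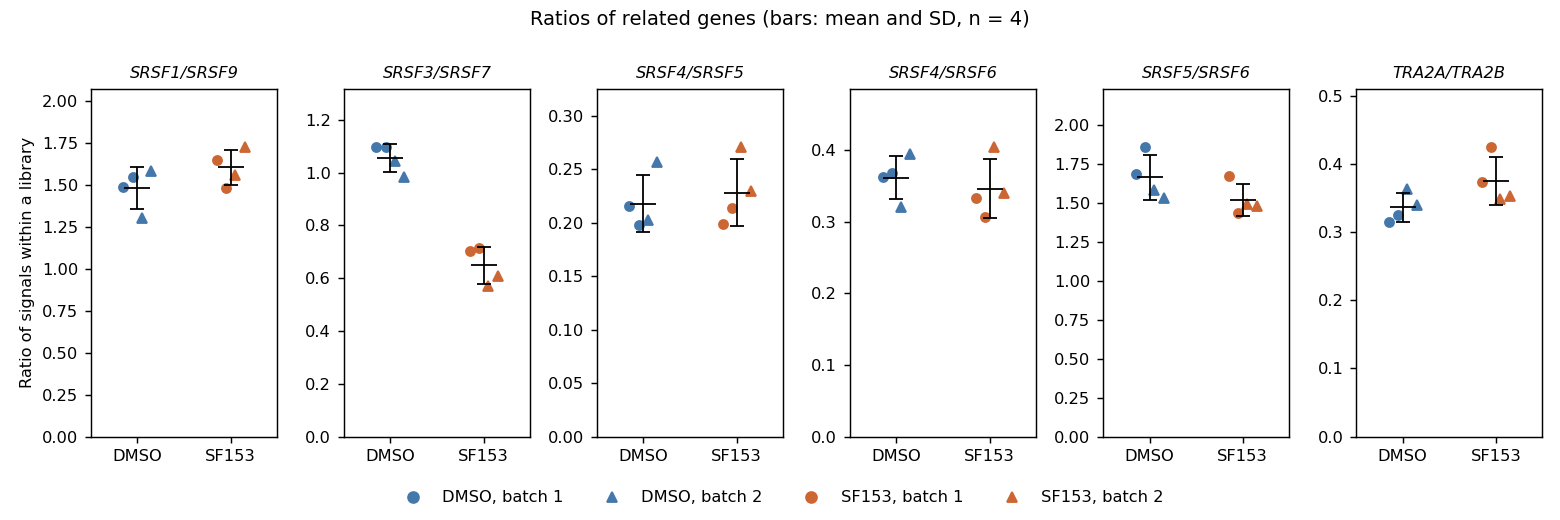
Ratio of the signals of 2 related genes within each library (linear axes from 0), for 6 pairs, with the mean and SD (n = 4); circles are batch 1 and triangles batch 2. SRSF3/SRSF7 lies between 0.984 and 1.10 in DMSO and between 0.572 and 0.715 in SF153, whereas both treatments overlap in the other pairs.

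How many members fell depended on the scaling between libraries. With the authors' values 5 fell and 0 rose. After median-of-ratios scaling 4 fell (SRSF1, SRSF3, SRSF7 and SRSF9), beside 21.2% of all tested genes, and after rescaling every library to the same sum 3 fell (SRSF3, SRSF7 and SRSF9), beside 17.6%. After quantile normalization SRSF3 and SRSF9 fell and SRSF2, SRSF5, SRSF6 and TRA2B rose, beside 18.1% of all genes lower and 20.8% higher. Without mitochondrial and small RNA genes SRSF3 fell and SRSF6 and TRA2A rose, beside 12.5% lower and 32.2% higher. Over all tested genes the split of higher to lower calls was 2015 to 3770 with the authors' values, 2471 to 2754 after rescaling, 3234 to 2816 after quantile normalization and 5434 to 2110 with mitochondrial and small RNA genes left out. After median-of-ratios scaling it was 2565 to 3287. The median difference of all genes was -0.03, 0.03, 0.08, 0.07 and 0.28 in the order authors' values, median of ratios, equal sums, quantile and removal of those genes. Relative to this median and with the authors' values, SRSF3 was at -1.08, SRSF6 at 0.006 and TRA2A at 0.02. The directions of SRSF2, SRSF4, SRSF5, SRSF6, TRA2A and TRA2B turned in at least 1 of the 4 other scalings, and those of SRSF1, SRSF3, SRSF7 and SRSF9 did not.

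**Figure D4:**
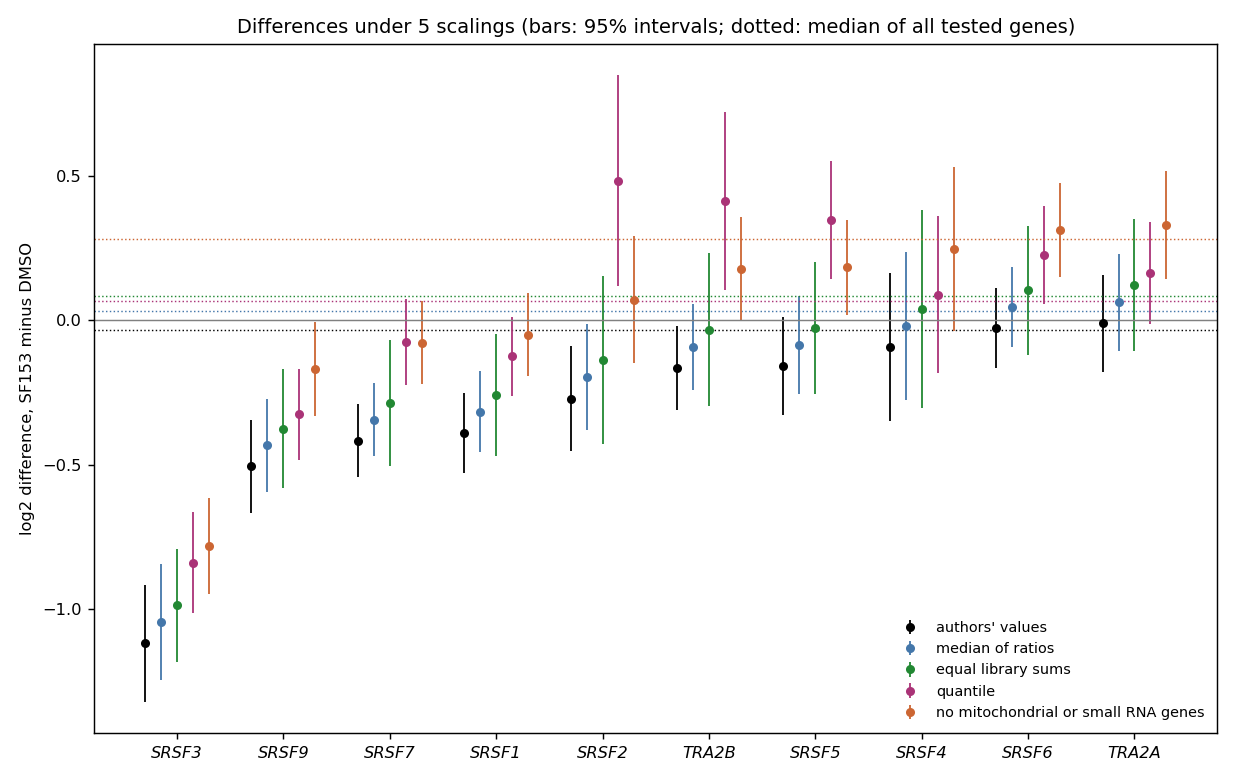
log2 difference of SF153 minus DMSO for each gene under 5 scalings (colours), with 95% intervals from limma; dotted lines give the median of all tested genes under the scaling of the same colour. All 5 intervals of SRSF3 lie below 0 and below their dotted line, while SRSF2, SRSF4, SRSF5, SRSF6, TRA2A and TRA2B have points on both sides of 0.

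The promoters of SRSF3, SRSF7, SRSF9 and SRSF6 are printed to set the members that fell beside one that was not called. RefSeq (GRCh38.p14) gave a window from 250 bases before to 50 after the start for 8 of the 10 members; SRSF2 and TRA2A had no entry, and SRSF7 had 2. Capitals mark matches, on either strand, to 7 short motifs: the SP box GGGCGG, the CCAAT box CCAAT, the ETS core CCGGAAG, a YY1 core ATGGCGG, an E2F-like TTTNNCGC, an NRF1-like sequence (GCGCA, any base, then GCGC) and the TATA box TATAAA. No matches overlapped in the members' windows.
SRSF3, chr6:36594112-36594411, plus strand: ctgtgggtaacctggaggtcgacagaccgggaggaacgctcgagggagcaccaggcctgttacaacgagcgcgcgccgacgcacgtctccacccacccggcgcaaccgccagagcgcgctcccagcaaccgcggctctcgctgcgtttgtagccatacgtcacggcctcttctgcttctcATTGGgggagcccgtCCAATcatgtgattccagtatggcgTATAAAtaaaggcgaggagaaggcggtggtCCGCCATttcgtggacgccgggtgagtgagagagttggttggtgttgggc
SRSF7, chr2:38751312-38751611, minus strand: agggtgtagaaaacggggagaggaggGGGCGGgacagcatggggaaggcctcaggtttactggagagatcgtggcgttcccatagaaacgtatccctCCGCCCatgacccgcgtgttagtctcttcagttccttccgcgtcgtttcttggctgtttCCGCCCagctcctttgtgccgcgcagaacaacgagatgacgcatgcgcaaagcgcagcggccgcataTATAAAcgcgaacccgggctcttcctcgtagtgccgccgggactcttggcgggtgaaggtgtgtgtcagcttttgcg
SRSF9, chr12:120469699-120469998, minus strand: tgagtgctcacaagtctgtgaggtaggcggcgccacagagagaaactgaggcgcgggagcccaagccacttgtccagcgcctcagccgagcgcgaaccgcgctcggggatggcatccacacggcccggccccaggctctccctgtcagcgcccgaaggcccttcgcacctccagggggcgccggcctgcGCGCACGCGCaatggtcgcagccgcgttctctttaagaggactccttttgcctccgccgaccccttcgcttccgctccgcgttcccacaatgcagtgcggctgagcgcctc
SRSF6, chr20:43457646-43457945, plus strand: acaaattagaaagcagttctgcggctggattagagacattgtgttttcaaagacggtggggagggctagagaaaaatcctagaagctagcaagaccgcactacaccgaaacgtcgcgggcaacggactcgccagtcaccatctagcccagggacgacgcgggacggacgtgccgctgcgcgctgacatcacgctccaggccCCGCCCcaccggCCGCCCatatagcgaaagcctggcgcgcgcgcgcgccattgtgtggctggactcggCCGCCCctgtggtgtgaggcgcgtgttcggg
The SRSF3 window holds 2 CCAAT matches, 1 TATA match and 1 YY1 core match. CCAAT was found in SRSF3 alone among the 8 members, beside 34.6% of all 35116 windows, and the TATA box in SRSF3 and in 1 of the 2 windows of SRSF7 (the one printed), beside 11.5% of all windows. The SP box was in 4 members (SRSF4, SRSF6, SRSF7 and TRA2B), beside 45.0% of all windows, and the NRF1-like sequence in SRSF1 and SRSF9, beside 5.78%. The ETS core was in SRSF4 and SRSF5 (10.3% of all windows), and the E2F-like sequence in TRA2B (6.89%). Among the 8 members the YY1 core was in SRSF3 alone, beside 5.55% of all windows. No motif of this set was in all of SRSF1, SRSF3, SRSF7 and SRSF9, the members that fell and had a window. SRSF2, which also fell, had none to examine. Whether any motif bears on the differences was not tested. The windows were 55.0% to 74.7% G and C, beside a median of 58.7% over all windows.

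Genes that work with the SR proteins were read from lists, each beside the 24.3% lower and 13% higher of all tested genes. Of 30 other SR and SR-related genes tested, 8 rose and 8 fell, and their median was -0.03. With mitochondrial and small RNA genes left out, where 32.2% of all tested genes were higher and 12.5% lower, 16 of these 30 were higher and 4 lower. BUD13, SAP18 and THRAP3, which act in pre-mRNA retention, in the exon junction complex and in transcript processing, had the largest differences of this list, at -0.95, -0.87 and -0.78. The largest rises were those of SNRNP70, RSRP1 and LUC7L3, at 0.43, 0.39 and 0.33. The remaining SR genes had a signal of 13.3 ± 3.12 in DMSO and 8.69 ± 1.95 in SF153 for SRSF8 (limma adjusted p = 0.0447), 134.8 ± 9.91 and 111.9 ± 12.8 for SRSF10 (0.0508) and 238.3 ± 11.9 and 259.9 ± 22.0 for SRSF11 (0.258). The SRSF8 call was lost in each of the other scalings examined for it (median of ratios, quantile, and removal of mitochondrial and small RNA genes).

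Of 14 genes for SR protein kinases, their phosphatase and nuclear import, 5 fell and 1 rose (median -0.16; 4 fell and 6 rose when mitochondrial and small RNA genes were left out, beside the same 12.5% and 32.2%). The falls were in protein phosphatase 1 subunit genes, PPP1CA (-1.54), PPP1R8 (-1.17), PPP1CB (-0.74) and PPP1CC (-0.653), and in the import gene TNPO3 (-0.405). No kinase gene was called lower, and the gene that rose was the kinase gene CLK3 (0.305). The hnRNP proteins often act against SR proteins at the same exons, and 13 of 14 fell with 0 higher (median -0.78), among them HNRNPA0, HNRNPA1 and HNRNPH2 at -1.18, -1.17 and -1.15 (HNRNPA1 -0.11 and not called after quantile normalization). After quantile normalization 8 of the hnRNP genes fell and 2 rose, beside 18.1% and 20.8% of all tested genes. Of 15 nonsense-mediated decay and exon junction factors 5 fell and 1 rose (median -0.12), with MAGOH, RBM8A and EIF4A3 of the exon junction complex at -1.42, -1.14 and -0.80. MAGOHB (-0.31) and CASC3 (0.13), which also belong to that complex, were not called with the authors' scaling. Of 7 export adaptors 2 fell, ALYREF at -1.91 and NXT1 at -1.18, and 2 rose, with DDX39B at 0.32 (median 0.14). When mitochondrial and small RNA genes were left out, the decay factors had 3 lower and 6 higher and the export adaptors 2 lower and 5 higher, beside 12.5% lower and 32.2% higher of all tested genes.

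**Figure D5:**
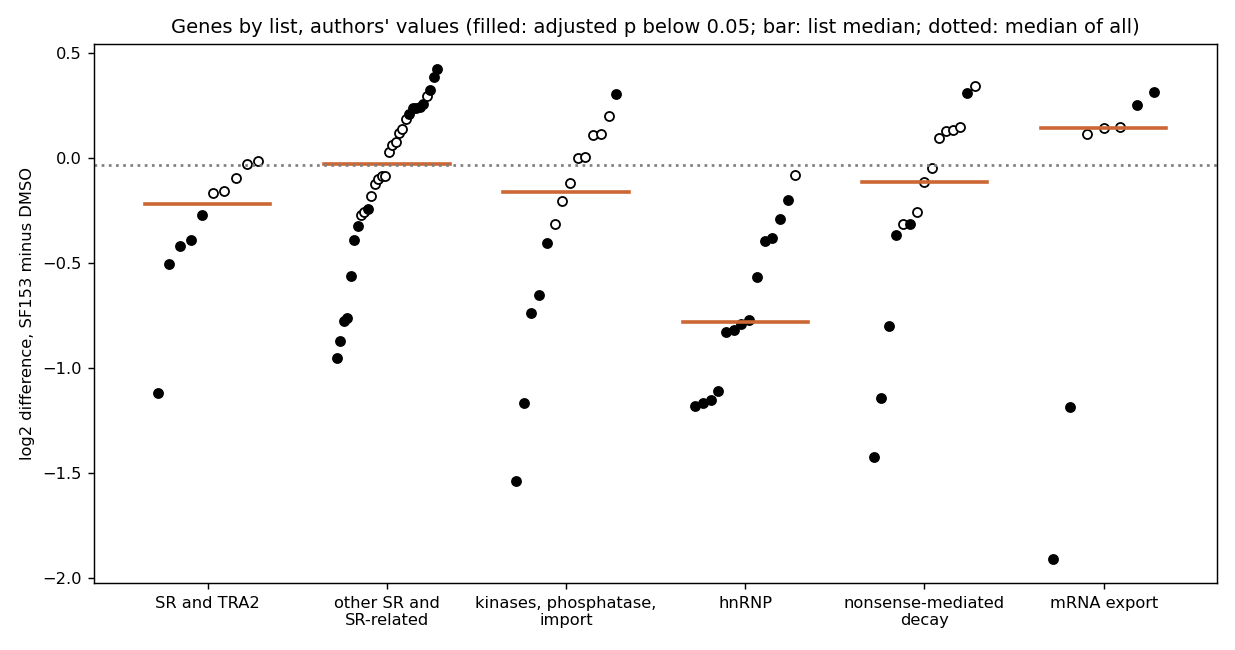
log2 difference of SF153 minus DMSO with the authors' scaling for each gene of 6 lists (filled points: limma adjusted p below 0.05; orange bars: list medians; dotted line: median of all tested genes, -0.03). SRSF3 is the lowest point of the SR and TRA2 list, whose median of -0.22 lies between those of the hnRNP genes (-0.78) and the other SR and SR-related genes (-0.03); with mitochondrial and small RNA genes left out the median of the members is 0.12 and that of the other SR and SR-related genes 0.31.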

How the data were processed

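Gene signal was taken as deposited for 8 NKM-1 libraries. The authors' values are recorded as a signal because they are of the TPM type but do not sum to a fixed total; CASAVA 1.8.2, STAR, Salmon, edgeR and GRCh38 are named without roles, per the submitters' processing notes. A scaling between libraries and a gene filter are not given in the sources used here. Columns were matched to libraries by number, letter, index pair and sample number; 4 names were spelled differently. limma 3.58.1 (R 4.3.3) compared 4 SF153 with 4 DMSO libraries on log2(signal + 1), with an intensity trend and no batch term, for genes with a mean of at least 1; this scale shrinks the differences of low genes. The fit was tested on simulated data. Nothing says that libraries of 1 treatment and batch came from separate cultures, so p-values measure only the spread between libraries, which may be technical.

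The members and lists were chosen with earlier results of these data known. All members are named. Of each other list, up to 3 called genes with the largest difference are given, with SRSF8, SRSF10, SRSF11, MAGOHB, CASC3 and some further called genes added. The labels' batch numbers pair the samples; deviations within batch had a mean r of 0.026 across treatments. Alternatives covered 4 scalings, pseudocounts of 0.1 and 5, filters, the variance model, batch, averaging, a length and mean trend, and leaving out each library. GENCODE release 29 gave transcripts and positions; 17235 of 17912 identifiers matched.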

Additional observations from a re-analysis of the deposited data

Results flagged for a closer look

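Among 32 groups of 4 libraries examined (20 of members and 12 of ratios), 2 held a library whose gap to its nearest neighbour took most of the group's range; chance gives about 1 in 20. The SRSF1 signal of SF153 1.1 was 139.69, with the other 3 SF153 libraries between 129.8 and 130.5; without it the log2 difference was -0.42 in place of -0.39. The SRSF4 signal of SF153 2.1 was 59.34, with the other 3 between 43.7 and 45.2; without it the log2 difference was -0.19 in place of -0.09 and was still not called (limma adjusted p = 0.152).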

How the results depend on the processing

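SRSF3 kept its direction and call in all 23 alternatives (log2 difference -1.16 to -0.78), and the calls of SRSF1, SRSF7 and SRSF9 held in every fit that left out a library, in either batch alone and with libraries averaged. Batch as a replicate block gave the same differences and calls as without it (SRSF2 -0.27, limma adjusted p = 0.0164). With that block 5 members were lower and 0 higher, beside 24.9% and 13.3% of all tested genes. A block by library number gave the same differences and calls too, beside 23.2% lower and 11.7% higher. These numbers pair libraries only by name, and deviations of same-numbered libraries had r between 0.005 and 0.059. Permuted within batch, no ratio changed its side of the threshold, but that test cannot pass it.

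The cause of the following changes was not tested. After quantile normalization the log2 differences were -0.12 for SRSF1, 0.48 for SRSF2, 0.089 for SRSF4, 0.35 for SRSF5, 0.23 for SRSF6, -0.075 for SRSF7, 0.16 for TRA2A and 0.41 for TRA2B. Without mitochondrial and small RNA genes they were -0.05 for SRSF1, 0.071 for SRSF2, 0.25 for SRSF4, 0.18 for SRSF5, 0.31 for SRSF6, -0.077 for SRSF7, -0.17 for SRSF9, 0.33 for TRA2A and 0.18 for TRA2B. Rescaled to equal library sums they were -0.26 for SRSF1, -0.14 for SRSF2, 0.039 for SRSF4, 0.10 for SRSF6 and 0.12 for TRA2A, and after median-of-ratios scaling -0.20 for SRSF2, 0.046 for SRSF6 and 0.063 for TRA2A. With the length and mean trend removed they were 0.10 for SRSF2, 0.085 for SRSF4, 0.13 for SRSF5, 0.079 for SRSF6, -0.11 for SRSF7, 0.39 for SRSF9, 0.27 for TRA2A and 0.14 for TRA2B. SRSF2 was not called without the intensity trend (-0.27, limma adjusted p = 0.0579), in batch 2 alone (-0.20) or after averaging (-0.27, limma adjusted p = 0.166). In batch 2 alone SRSF4 had 0.012, the SRSF4/SRSF6 ratio 0.061 and the TRA2A/TRA2B ratio -0.003; in batch 1 alone TRA2A had 0.049, TRA2B -0.26 and the TRA2A/TRA2B ratio 0.31.

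The members higher and lower numbered 4 and 2 after quantile normalization, 2 and 1 with mitochondrial and small RNA genes left out, 2 and 2 with the trend removed (beside 20.1% higher and 17.8% lower of all tested genes) and 0 and 3 with equal sums. Leaving out 1 library at a time, 4 to 5 members were lower and 0 higher, beside 21.1% to 23.3% lower and 9.98% to 11.5% higher of all tested genes. SRSF2 then ranged from -0.34 to -0.22 (-0.278 without DMSO 2.2), SRSF1 from -0.42 to -0.37, SRSF3 from -1.16 to -1.06, SRSF7 from -0.44 to -0.41, SRSF9 from -0.54 to -0.46 and TRA2A from -0.059 to 0.027, turning to 0.027 without DMSO 2.1, to 0.022 without SF153 1.1 and to 0.006 without SF153 2.1. SRSF4 ranged from -0.193 to -0.033, SRSF5 from -0.193 to -0.114 and SRSF6 from -0.054 to -0.003. The SRSF4/SRSF5 ratio ranged from -0.018 (without SF153 2.1) to 0.15, SRSF4/SRSF6 from -0.139 to -0.009, SRSF1/SRSF9 from 0.056 to 0.152, SRSF5/SRSF6 from -0.176 to -0.076 and TRA2A/TRA2B from 0.094 to 0.193.

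Of the other lists, the SR and SR-related genes had 14 higher and 5 lower after quantile normalization, 16 and 4 with mitochondrial and small RNA genes left out and 4 lower with equal sums. Kinase, phosphatase and import genes had 4, 6 and 2 higher after quantile normalization, without those genes and after median-of-ratios scaling. The hnRNP genes had 2 higher and 8 lower after quantile normalization and 1 higher without those genes. Decay factors had 2 higher after median-of-ratios scaling, 4 higher and 3 lower after quantile normalization, 6 and 3 without those genes and 3 lower with equal sums, and export adaptors had 5 higher without those genes. The read depth is unknown, so counting error could not be given.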

Other observations

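A processed pseudogene of SRSF6, SRSF6P2, had a signal of 1.5, 1.44, 1.11 and 0.84 in DMSO and 2.10, 1.90, 2.66 and 1.87 in SF153. Every SF153 value was above every DMSO value, as in 13.2% of all tested genes, whereas the groups of SRSF6 overlapped. A pseudogene of SRSF10, SRSF10P1, had 0.58 to 1.53 in DMSO and 0.71 to 0.87 in SF153. Both share sequence with their parent genes, so their values are uncertain, and they were chosen after their values were seen.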
